A study of Mus musculus with 26 samples.

Results

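The genes described here bring glucose and fructose into the cell and carry them through glycolysis, lactate production and the pentose phosphate pathway. They were chosen by gene symbol and not by any measured value: 36 symbols were listed, and 34 of them reached 1 FPKM in at least 3 libraries. FPKM is a level corrected for transcript length and for the number of fragments sequenced. The table holds 48432 genes, of which 12708 met the same minimum. The 2 listed genes below it were Aldoc, an aldolase best known from brain, at no more than 0.819 FPKM, and Slc16a3, a lactate transporter, at no more than 0.9 FPKM.

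RNA was sequenced from brown adipose tissue of mice aged 2 months, giving 26 libraries. The control mice, called FF here, had the genotype KLF15 flox/flox, with no Cre named in their labels. The knockout mice, called BKO here, were Ucp1-Cre/+;K15F/F, that is, they carried the same floxed Klf15 gene together with Cre recombinase under the promoter of Ucp1, a gene of brown adipocytes. The floxed gene was therefore present in every group, and deletion was directed at Ucp1-expressing cells rather than at every cell of the tissue. Mice of each genotype were at room temperature and fed, at room temperature and fasting, under cold challenge, or under cold and fasting together; these groups are called fed, fasted, cold and cold-fasted. Each group had 3 libraries, except the cold groups, which had 4 each. The length of the fast, the temperature and length of the cold exposure, and the feeding state of the cold groups are not given in the sources used here. The library titles carry separate numbers and the design text speaks of 3 to 4 mice, but the labels do not state that each library is a separate animal; p-values measure only the spread between these samples.

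Brown adipose tissue burns fuel to make heat, and its glucose uptake is known to rise in the cold. Glucose enters through GLUT transporters and is trapped as glucose 6-phosphate by hexokinase. It then goes either down glycolysis, where phosphofructokinase makes the committed step, or into the pentose phosphate pathway, whose oxidative branch makes NADPH for fatty acid synthesis and whose non-oxidative branch returns sugars to glycolysis. KLF15, the transcription factor deleted here, is known for its part in fuel use during fasting.

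Klf15 was at 9.03 to 30.6 FPKM in the FF libraries and at 2.12 to 8.92 FPKM in the BKO libraries, with no overlap between genotypes. Summed FPKM per library ran from 388107 to 501068, 11345 to 11868 genes reached 1 FPKM, and relative depth estimated from the lowest values ran from 0.774 to 1.24. The column labels form 2 sets of numbers: 8 libraries, all FF, are in the first set, and the other 18 are in the second. All 3 FF fasted libraries, 2 of 3 FF fed libraries and 3 of 4 FF cold libraries are in the first set, while every BKO library and every FF cold-fasted library is in the second. What the sets stand for is not stated, so genotype in the fasted state and label set cannot be told apart. The third BKO cold-fasted library stood apart from the others on the third principal component. Brown adipocyte markers were abundant in every group, with 12 or 13 of 13 at a group mean of 1 FPKM or more; Ucp1 is listed at 0 in the cold libraries, and is among 33 genes whose zeros were read as failed estimates. None of the 34 genes described here is among those 33.

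In fed FF tissue the most abundant of these transcripts, per length, were Aldoa (3186 ± 479.8 FPKM, mean ± SD, n = 3), an aldolase that splits the 6-carbon sugar, and Tkt (1389.6 ± 167), the transketolase of the pentose phosphate pathway. Ldha (1179 ± 105), a lactate dehydrogenase subunit, Taldo1 (915 ± 86.1), the transaldolase, and Pkm (849.8 ± 119), a pyruvate kinase, followed. Aldoa stood above the other 4; the ranges of Tkt and Ldha overlapped, and so did those of Taldo1 and Pkm. Slc2a4, which encodes the insulin-regulated glucose transporter GLUT4, was at 299 ± 47 FPKM, against 2.35 ± 0.314 for Slc2a1, the widespread glucose transporter GLUT1, and 12.7 ± 6.97 for Slc2a5, the fructose transporter GLUT5. The glyceraldehyde 3-phosphate dehydrogenase gene Gapdh was listed at only 0.668 to 3.24 FPKM across all libraries; 101 other annotated genes, 99 of them pseudogenes, share at least 95% identity with its transcripts over 300 bases or more, and those listed averaged 19.7 FPKM together. Near-identical copies were listed at high levels for Eno1 (Gm4735, 227.8 FPKM), Pkm (Gm6560, 124), Ldhb (Gm5514, 99.4) and Tpi1 (Tpi-rs11, 37.3) as well; how the counting divided such reads is not given.

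Promoter sequences are printed for 4 members whose levels carry the fasting and cold results below, chosen after their values were seen: Slc2a5, the phosphofructokinase genes Pfkl and Pfkp, and Rpia, the ribose 5-phosphate isomerase. Each covers 300 bases around an annotated start, most of them before it, 5′ to 3′ on the gene's strand, in RefSeq's GRCm38.p6 coordinates. Slc2a5 lies at chr4:150119094-150119393 on the forward strand, and Pfkl at chr10:78009758-78010057, Pfkp at chr13:6648722-6649021 and Rpia at chr6:70792126-70792425 on the reverse strand. Capitals mark matches, on either strand and including overlapping ones, to the letters GGGCGG (the GC box), CCACCC (the CACCC box), CACGTG (the E-box) and ACGTG (the core of the hypoxia response element, which is also contained in CACGTG).
Slc2a5: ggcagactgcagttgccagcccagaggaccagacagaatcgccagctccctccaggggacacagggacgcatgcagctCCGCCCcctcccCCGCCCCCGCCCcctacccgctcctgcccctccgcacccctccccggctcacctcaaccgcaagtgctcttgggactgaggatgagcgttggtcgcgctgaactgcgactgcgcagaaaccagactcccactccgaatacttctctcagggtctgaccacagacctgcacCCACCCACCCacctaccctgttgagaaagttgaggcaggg
Pfkl: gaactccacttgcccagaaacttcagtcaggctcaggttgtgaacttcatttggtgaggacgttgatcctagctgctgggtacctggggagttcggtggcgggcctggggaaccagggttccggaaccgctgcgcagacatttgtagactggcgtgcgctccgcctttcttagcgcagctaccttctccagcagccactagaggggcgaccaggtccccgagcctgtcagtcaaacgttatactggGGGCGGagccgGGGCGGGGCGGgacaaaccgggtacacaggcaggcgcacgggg
Pfkp: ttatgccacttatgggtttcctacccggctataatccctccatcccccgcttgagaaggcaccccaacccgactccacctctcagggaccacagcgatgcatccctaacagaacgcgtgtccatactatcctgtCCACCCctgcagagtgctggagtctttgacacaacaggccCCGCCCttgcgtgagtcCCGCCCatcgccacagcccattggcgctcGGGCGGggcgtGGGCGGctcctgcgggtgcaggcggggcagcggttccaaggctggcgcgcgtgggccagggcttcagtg
Rpia: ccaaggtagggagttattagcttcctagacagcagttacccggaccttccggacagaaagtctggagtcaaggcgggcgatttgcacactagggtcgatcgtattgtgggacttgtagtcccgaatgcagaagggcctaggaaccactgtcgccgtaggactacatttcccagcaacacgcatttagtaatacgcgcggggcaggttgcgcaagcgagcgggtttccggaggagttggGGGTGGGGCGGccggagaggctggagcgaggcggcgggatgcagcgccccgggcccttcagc
GGGCGG matched 3 times in the Slc2a5 window, 3 in Pfkl, 4 in Pfkp and 1 in Rpia, and neither CACGTG nor ACGTG matched in these 4 windows. RefSeq entries were found for 35 of the 36 genes, with 53 promoter windows. GGGCGG was in 31 of the 53 (58.5%), against 35.7% of 32851 promoters of the same length and 46.2% of those of coding genes. ACGTG was in 21 (39.6%, against 19.6% of all and 20.9% of coding promoters) and CCACCC in 24 (45.3%, against 31.5% and 33.6%). CACGTG was in 6 (11.3%, against 7.15% and 7.84%). Some genes have several windows, which can overlap, so a gene can count more than once. By gene, GGGCGG was in 28 of 35, ACGTG in 17, CCACCC in 19 and CACGTG in 6, with no background computed by gene. These are letter matches and not measured binding sites.

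Fasting at room temperature lowered most of these transcripts in both genotypes. In FF mice 22 of the 34 tested fell and 1 rose when fasted was compared with fed, while 19.4% of all tested genes fell and 18.1% rose. In BKO mice 25 fell and 2 rose, against 14.6% and 12.9% of all genes. The median difference was -0.42 in FF and -0.61 in BKO on the log2(FPKM + 1) scale, beside medians over all genes of -0.000382 and -0.00617. A gene is called here where limma's Benjamini-Hochberg adjusted p, over all genes tested, was below 0.05; differences are given as log2 of FPKM + 1, with their SE, which understates changes of low genes. Summed over the 34 genes, FPKM ran from 9706 to 12366 in fed FF and from 5523 to 7322 in fasted FF libraries, and from 9527 to 11643 in fed BKO and from 5878 to 6343 in fasted BKO libraries. In bulk tissue, fewer cells of a type and less RNA per cell cannot be told apart. Beside these falls, the summed level of white adipocyte markers was between 54.0 and 91.4 FPKM in the fed libraries and between 26.6 and 44.2 in the fasted ones, with 2 of 6 tested markers that fell in FF and 3 in BKO. Smooth muscle and fibroblast markers summed to 135 to 145 FPKM in fasted against 105 to 131 in fed FF libraries, and to 123 to 137 against 97.2 to 124 in BKO. In FF, erythroid markers summed to 226 to 266 fasted and 120 to 188 fed, and endothelial markers to 162 to 170.3 and 149 to 156. Lymphocyte markers were lower in fasted FF, at 3.10 to 3.83 against 4.93 to 8.83 FPKM, and the BKO groups overlapped slightly, with fasted libraries at 3.48 to 5.01 and the lowest fed one at 4.98. The part of these markers in the result was not tested.

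**Figure D1:**
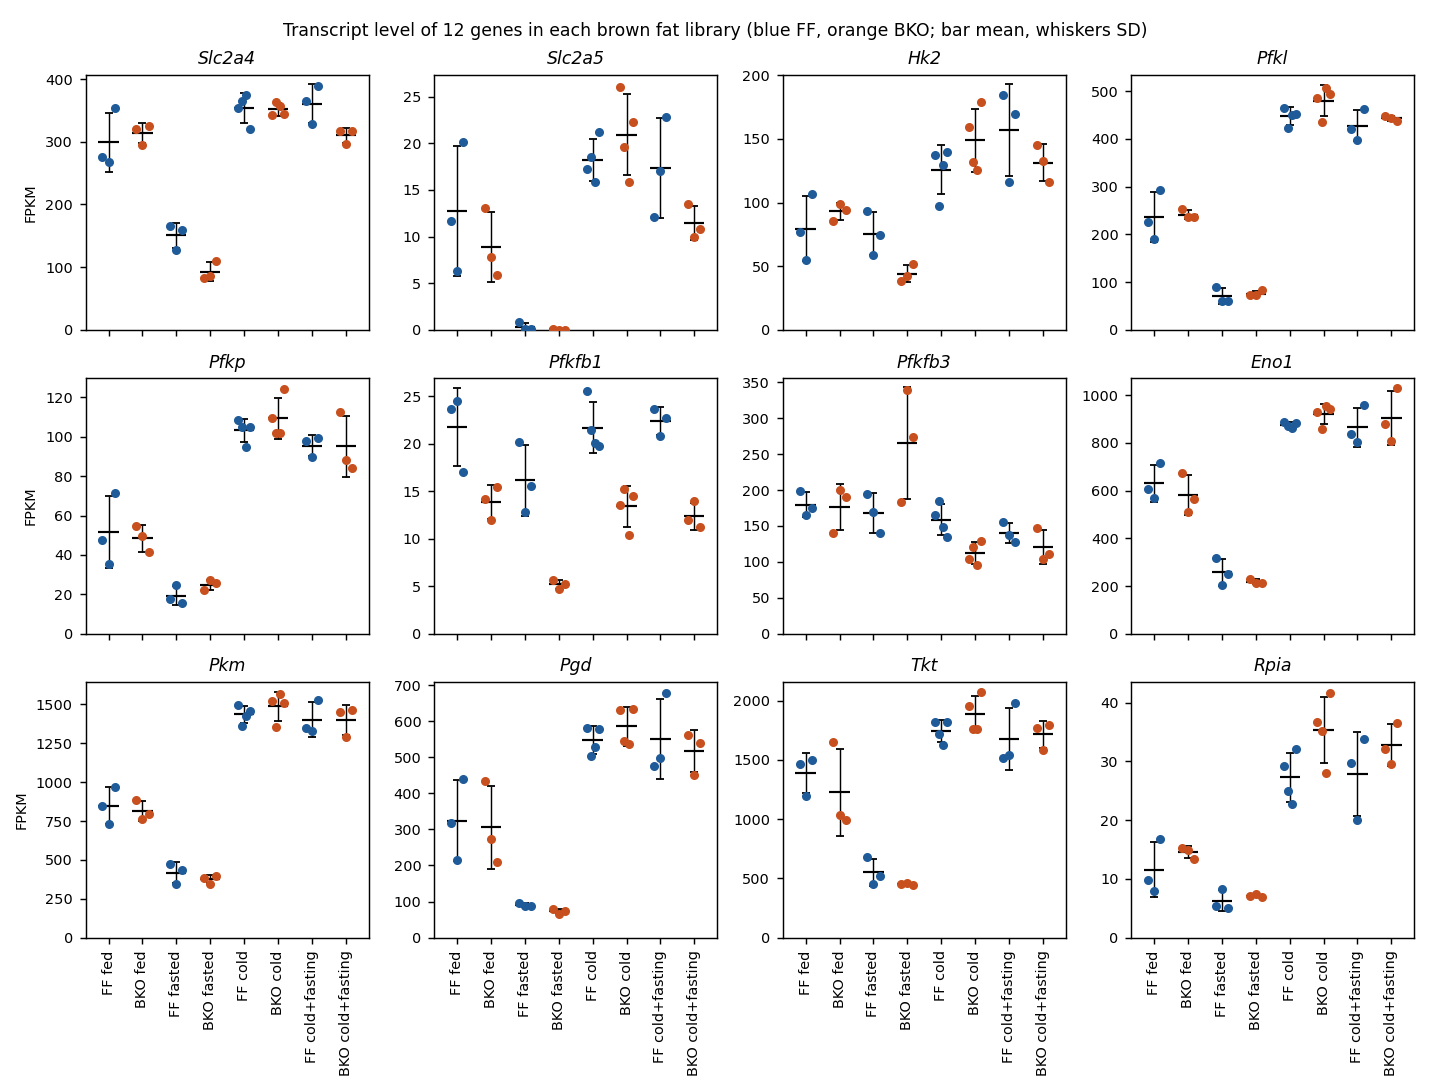
Each panel shows one gene's FPKM in every library (points) by group, with a bar at the mean and whiskers of 1 SD, FF in blue and BKO in orange. Fasted points lie below fed points for Slc2a4, Slc2a5, Pfkl, Pfkp, Eno1, Pkm, Pgd and Tkt in both genotypes, while BKO points for Pfkfb1 lie below FF points in each state.

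Among the transporters, Slc2a5 (chromosome 4, 150119283 to 150144169, forward strand in GRCm38, GENCODE M21) changed most. It was at 11.6, 6.34 and 20.2 FPKM in fed FF and 0.801, 0.14 and 0.101 in fasted FF libraries. In BKO it was at 13.1, 7.79 and 5.84 fed and 0.0578, 0.0409 and 0.0413 fasted. Every fasted library was below 1 FPKM and every fed library above 5, so the groups did not overlap in either genotype. The difference was -3.25 ± 0.30 in FF (limma adjusted p = 3.24e-08) and -3.18 ± 0.30 in BKO (adjusted p = 6.3e-08), and the fasted mean was 2.73% and 0.524% of the fed mean.

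Slc2a4 (chromosome 11, 69942539 to 69948188, reverse strand) was at 276, 268 and 353 FPKM in fed FF and 165, 128 and 159 in fasted FF libraries. The BKO libraries read 321, 295 and 325 fed and 83, 85.7 and 109.8 fasted. Fed and fasted libraries did not overlap, and each fasted BKO library was below each fasted FF library. The fasting differences were -0.98 ± 0.11 in FF (adjusted p = 6.9e-07) and -1.76 ± 0.11 in BKO (adjusted p = 7.68e-10). No RefSeq promoter entry was found for Slc2a4. Slc2a1 was the single member that rose in fasted FF mice, from 2.01, 2.4 and 2.64 to 4.89, 3.21 and 4.01 FPKM (0.58 ± 0.12, adjusted p = 0.000624), and its BKO difference was -0.01 (adjusted p = 0.97). Khk, the ketohexokinase that phosphorylates fructose, was at 6.47 to 13.7 FPKM over all 26 libraries and passed in neither genotype.

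Of the 8 tested genes of hexose phosphorylation and upper glycolysis, 7 fell in fasted FF mice and 8 in fasted BKO mice. Pfkl had the largest fall of this group in both genotypes. Pfkl, the liver-type subunit (chromosome 10, 77986947 to 78010083, reverse strand), was at 227, 189.8 and 293 FPKM in fed FF and 90.2, 60.7 and 60.5 in fasted FF libraries, and at 254, 236 and 236 in fed and 72.9, 73 and 82.5 in fasted BKO libraries. The groups were far apart: fasted means were 29.8% of fed in FF and 31.5% in BKO, with differences of -1.73 ± 0.13 and -1.66 ± 0.13 (adjusted p = 3.02e-09 and 6.92e-09). Pfkp, the platelet-type subunit, fell from 47.6, 35.4 and 71.3 to 17.6, 24.8 and 15.7 FPKM in FF (-1.33 ± 0.18, adjusted p = 6.17e-06) and from 54.5, 49.5 and 41.3 to 22.1, 27.1 and 25.6 in BKO (-0.93 ± 0.18, adjusted p = 0.000544). Pfkm, the muscle-type subunit, had the smallest differences of the phosphofructokinase genes (-0.44 and -0.43).

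Hexokinase 1, the gene Hk1, fell in both genotypes (-0.90 in FF and -0.79 in BKO). Hk2, the more abundant hexokinase here, was at 77.2, 55.1 and 106 FPKM in fed and 93.1, 59 and 74.9 in fasted FF libraries, which overlapped (-0.05 ± 0.21, adjusted p = 0.886). In BKO it was at 85.5, 99.1 and 94.4 fed and 38.7, 41.9 and 51.6 fasted, without overlap (-1.07 ± 0.21, adjusted p = 0.000598). The difference between these fasting differences was -1.02 ± 0.30 and did not pass (adjusted p = 0.12). Aldoa fell in both genotypes (-0.63 and -0.62), as did the triose phosphate isomerase Tpi1 (-0.29 and -0.36). The glucose 6-phosphate isomerase Gpi1 fell by 0.37 in FF and by 0.58 in BKO on the log2 scale; its FF call ended without the third fed or the second fasted library.

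The Pfkfb genes encode enzymes that make and break fructose 2,6-bisphosphate, the activator of phosphofructokinase. Pfkfb3, the form with the strongest kinase activity, was the most abundant, at 199, 165 and 176 FPKM in fed and 195, 169 and 139.8 in fasted FF libraries (-0.11 ± 0.19, adjusted p = 0.697). It rose in BKO, from 139.9, 200.0 and 190.0 to 184, 339 and 273 FPKM (0.56 ± 0.19, adjusted p = 0.0311), with the first fasted library inside the fed range. That call ended without the first fed or the second or the third fasted BKO library. Pfkfb1, the liver and muscle form, fell in BKO from 14.2, 11.9 and 15.4 to 5.64, 4.7 and 5.29 FPKM (-1.25 ± 0.16, adjusted p = 2.92e-06). In FF its difference was -0.41 ± 0.16 (adjusted p = 0.0411), a call that ended without any of 4 libraries, the first or the second fed or the second or the third fasted. Pfkfb4, at 0.774 to 3.45 FPKM over all libraries, fell in BKO (-0.45, adjusted p = 0.0321) and differed by -0.25 in FF (adjusted p = 0.204). Its response did not differ between genotypes by the test (adjusted p = 0.798), and its BKO call ended without any of 5 libraries: the first or the second fed, or any fasted. Pfkfb2 passed in neither.

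Of the 7 genes of lower glycolysis, 4 fell in FF and 5 in BKO. The enolase gene Eno1 was at 608, 567 and 717 FPKM in fed and 316, 205 and 249 in fasted FF libraries, and at 674, 509 and 567 in fed and 231, 211 and 213 in fasted BKO libraries. Its differences were -1.31 ± 0.13 and -1.41 ± 0.13 (adjusted p = 6.52e-08 and 3.84e-08), and every fasted library was below every fed one. Pkm, which makes pyruvate, fell from 849.5, 731 and 969 to 473, 344 and 435 FPKM in FF (-1.03 ± 0.11, adjusted p = 2.04e-07) and from 884, 766 and 793 to 386, 348 and 398 in BKO (-1.11 ± 0.11, adjusted p = 1.05e-07). The phosphoglycerate mutase Pgam1 fell by 0.73 in FF and by 0.46 in BKO, and the phosphoglycerate kinase Pgk1 by 0.23 and by 0.25; the FF call for Pgk1 ended without the third fed library. Gapdh fell in BKO (-0.43, adjusted p = 0.0239), a call that ended without the first fed, the first fasted or the third fasted library. With its near-identical copies summed it fell in both genotypes (-0.52 in FF, adjusted p = 0.00146; -0.70 in BKO, adjusted p = 0.000108). The muscle-type genes Pgam2, at 0 to 3.95 FPKM, and Eno3, at 3.34 to 11.1 FPKM, passed in neither; skeletal muscle markers summed to 18.2 to 255 FPKM per library, with ranges that overlapped between the groups.

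Ldha fell in both genotypes, from 1109, 1128 and 1300.4 to 821, 607 and 733 FPKM in FF and from 1166, 1106 and 1137 to 640.4, 723 and 707 in BKO, a difference of -0.72 in each. Ldhb, the heart-type lactate dehydrogenase subunit, differed by -0.06 ± 0.09 in FF and -0.14 ± 0.09 in BKO and passed in neither (adjusted p = 0.632 and 0.248). Slc16a1, the monocarboxylate transporter MCT1 that moves lactate and ketone bodies, fell from 125, 114 and 139 to 46.4, 79.9 and 42.3 FPKM in FF (-1.20 ± 0.18, adjusted p = 2.45e-05). In BKO the fed libraries read 172, 143 and 110.4 and the fasted ones 71.3, 113 and 90.7, which overlapped (-0.62 ± 0.18, adjusted p = 0.0138); this call ended without the first fed or the first fasted BKO library.

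In the oxidative branch of the pentose phosphate pathway, Pgd, the 6-phosphogluconate dehydrogenase (chromosome 4, 149149991 to 149166771, reverse strand), fell most. It was at 317, 216 and 439 FPKM in fed and 97.3, 87.3 and 88 in fasted FF libraries, and at 434, 272 and 211 in fed and 78.9, 66.8 and 73.8 in fasted BKO libraries. The fed values spread widely, yet each lay above every fasted value. The differences were -1.77 ± 0.21 in FF and -1.99 ± 0.21 in BKO (adjusted p = 1.26e-06 and 3.8e-07). G6pdx, the glucose 6-phosphate dehydrogenase that opens the pathway, fell in BKO (-0.79 ± 0.14, adjusted p = 0.000197); its FF difference of -0.36 ± 0.14 (adjusted p = 0.0485) lost its call on omission of any of 19 of the 26 libraries. Pgls, the lactonase between these steps, rose in BKO from 113, 94.9 and 142 to 162, 163 and 199.6 FPKM (0.59 ± 0.15, adjusted p = 0.00579), and its FF difference was 0.20 ± 0.15 (adjusted p = 0.332). H6pd, the dehydrogenase of the endoplasmic reticulum, passed in neither.

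All 4 genes of the non-oxidative branch fell in both genotypes. Tkt (chromosome 14, 30548359 to 30574720, forward strand) was at 1467, 1198 and 1503 FPKM in fed and 679.8, 449.9 and 520.2 in fasted FF libraries, and at 1648, 1036 and 997 in fed and 454, 462 and 444 in fasted BKO libraries. No fasted library reached the fed range, and the differences were -1.35 ± 0.16 and -1.40 ± 0.16 (adjusted p = 8.12e-07 and 7.34e-07). Taldo1 fell by 0.67 in FF and by 0.60 in BKO, and Rpe, the ribulose phosphate epimerase, by 0.88 and by 0.69. Rpia fell by 0.75 in FF (adjusted p = 0.00792), a call that ended without the third fed library, and by 0.93 in BKO (adjusted p = 0.00214). Over the whole list, refitting FF fasted against fed with label set as a covariate left 20 members called, where 34.3% of all genes were called, and using only the first label set left 18, where 24.8% were. All BKO libraries are in the second set, so the BKO comparison lies within it.

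**Figure D2:**
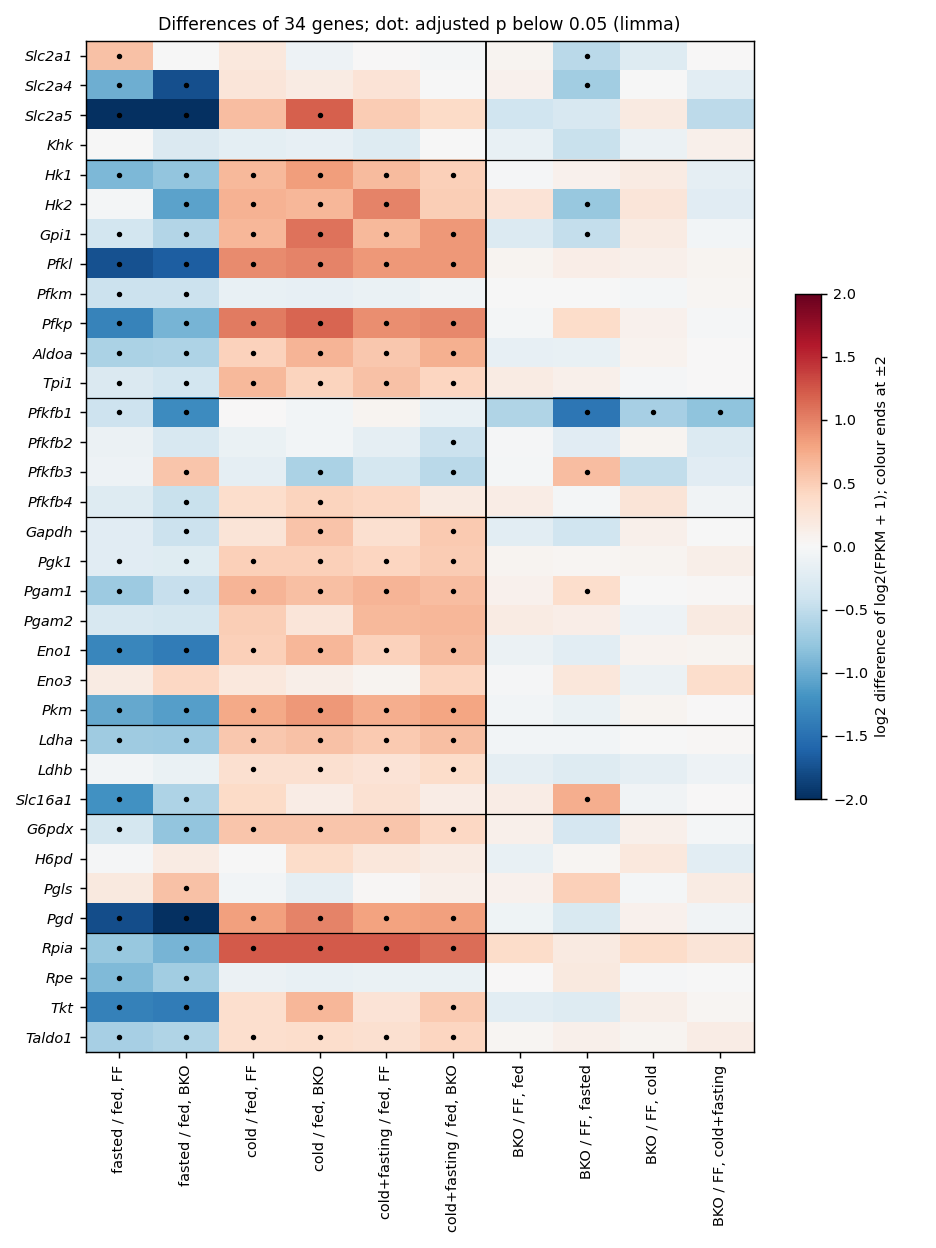
Heatmap of the log2(FPKM + 1) difference (colour, ending at -2 and 2) for the 34 tested genes in rows and 10 comparisons in columns, with a dot where the limma adjusted p was below 0.05. The fasted columns are mostly negative, with 22 genes that fell in FF and 25 in BKO, the cold columns mostly positive, and the genotype columns mostly without a dot.

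Cold raised many of the same pathway's transcripts. In FF mice 17 of the 34 rose and 0 fell in cold against fed, where 13.3% of all genes rose and 10.3% fell, and 23 had an unadjusted p under 0.05. In BKO mice 21 rose and 1 fell, where 9.72% of all genes rose and 6.51% fell. Summed FPKM of the 34 genes reached 14606 to 16030 in FF cold and 15105 to 16277 in BKO cold libraries, above every fed library. The median difference was 0.42 in FF and 0.46 in BKO. These comparisons share their fed libraries with the fasting comparisons, so a fed library that is low or high moves both. The erythroid markers summed to 342 to 601 FPKM in FF cold against 120 to 188 in FF fed libraries, and to 415 to 701 in BKO cold against 174 to 471 in BKO fed libraries; endothelial markers summed to 184 to 237 in cold and 149 to 171 in fed libraries. Smooth muscle and fibroblast markers summed to 71.5 to 100.3 in cold and 97.2 to 131 in fed libraries, and white adipocyte markers to 27.7 to 59.3 and 54.0 to 91.4. Their part in the result was not tested.

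The 7 genes of upper glycolysis that rose were the same in both genotypes: Hk1, Hk2, Gpi1, Pfkl, Pfkp, Aldoa and Tpi1. Pfkl was at 466, 422, 450.0 and 452 FPKM in FF cold and 485, 435, 508 and 493 in BKO cold libraries, all above the fed values given earlier. Its differences were 0.94 ± 0.12 and 0.99 ± 0.12 (adjusted p = 1.06e-05 and 8.51e-06), and the cold means were 189% and 199% of fed. Pfkp (chromosome 13, 6579768 to 6648777, reverse strand) rose to 108, 105, 94.7 and 105 FPKM in FF and 109, 102, 102 and 124 in BKO (1.05 ± 0.17 and 1.16 ± 0.17, adjusted p = 0.000121 and 6.2e-05). Gpi1 reached 534, 478, 485 and 565 FPKM in BKO cold libraries from 296, 228 and 207 fed (1.09 ± 0.11), beside 0.66 ± 0.11 in FF; 1 annotated pseudogene near-identical to it, Gm1840, averaged 240.6 FPKM over all libraries. Hk2 rose to 137, 97.5, 129 and 139.7 FPKM in FF (0.69 ± 0.20, adjusted p = 0.0138) and 159, 132, 125 and 179 in BKO (0.66 ± 0.20, adjusted p = 0.0242). The FF calls for Hk2 and Aldoa ended without the second fed library, and the BKO call for Hk2 without the first or the fourth cold or the first or the third fed library. Pfkm stayed at 31.3 to 39.5 FPKM over fed and cold libraries and passed in neither genotype.

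Cold did not raise Slc2a4 by the test: it was at 354, 365, 374 and 319.6 FPKM in FF cold (0.25 ± 0.10, adjusted p = 0.0909) and 342, 363, 356 and 344 in BKO cold libraries (0.16 ± 0.10, adjusted p = 0.321). Slc2a5 rose in BKO, to 26.1, 19.6, 15.9 and 22.3 FPKM (1.19 ± 0.28, adjusted p = 0.00471), and was at 17.3, 18.5, 15.9 and 21.2 FPKM in FF (0.61 ± 0.28, adjusted p = 0.115). In FF the highest fed value, 20.2, lay inside the cold range. Slc2a1 and Khk passed in neither genotype. Pfkfb3 fell in BKO, to 105, 120.2, 95.2 and 129.6 FPKM (-0.64 ± 0.18, adjusted p = 0.0151), a call that ended without the second or the third fed library, and differed by -0.18 ± 0.18 in FF. Pfkfb4 rose in BKO (0.45, adjusted p = 0.033), and its call ended without the first or the second cold or the second or the third fed library.

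In lower glycolysis Pgk1, Pgam1, Eno1 and Pkm rose in both genotypes and Gapdh in BKO (0.57, adjusted p = 0.00403; FF 0.26, adjusted p = 0.154). With its near-identical copies summed Gapdh rose in both (0.45 in FF, adjusted p = 0.0049; 0.74 in BKO, adjusted p = 7.75e-05). Pkm was at 1497, 1363, 1427 and 1454 FPKM in FF cold and 1523, 1353, 1565 and 1509 in BKO cold libraries (0.76 ± 0.10 and 0.87 ± 0.10), and every cold library was above every fed one. Pgam1 rose from 49.5 to 57.2 FPKM over the fed libraries to 73.1 to 91 over the cold ones (0.69 in FF and 0.60 in BKO). Its pseudogene Pgam1-ps2, near-identical in sequence, was listed at a mean of 202.5 FPKM, above the 65.1 of Pgam1 itself; with copies summed both calls held. The lactate dehydrogenase genes both rose, Ldha by 0.54 and 0.59 and Ldhb by 0.33 and 0.32 in FF and BKO; the BKO call for Ldhb ended without the second fed library. Slc16a1 passed in neither genotype (adjusted p = 0.115 and 0.599).

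The largest cold difference of all the tested members was that of Rpia (chromosome 6, 70765720 to 70792232, reverse strand), a step that makes ribose 5-phosphate for nucleotides. It was at 9.84, 7.95 and 16.8 FPKM in FF fed and 29.2, 24.9, 22.7 and 32.2 in FF cold libraries. In BKO it was at 15.3, 14.9 and 13.4 fed and 36.8, 35.1, 28.1 and 41.6 cold. Cold and fed libraries did not overlap, with differences of 1.22 ± 0.20 and 1.22 ± 0.20 (adjusted p = 0.000126 and 0.000189). Pgd rose to 582, 503, 529 and 579 FPKM in FF and 629.9, 544, 536 and 634 in BKO (0.81 and 1.00), its FF call ending without the second fed library. G6pdx rose by 0.56 in FF and 0.56 in BKO, the latter a call that ended without the third fed library. Tkt rose in BKO (0.66 ± 0.15, adjusted p = 0.00321) and differed by 0.33 ± 0.15 in FF (adjusted p = 0.101). Taldo1 rose by 0.34 and 0.36, and in each genotype its call ended without the first or the second cold library or either of 2 fed ones, the first or the second in FF and the second or the third in BKO. Rpe, Pgls and H6pd passed in neither. With label set as a covariate 17 members were called in FF cold (24.2% of all genes) and within the first label set 15 (15.1%). Within the second set, where FF has 1 fed and 1 cold library and the spread is that of the other groups, 1 member, Pfkl, was called (0.942%).

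Cold with fasting also raised many of these transcripts. Against fed, 17 members rose and 0 fell in FF (11.6% of all genes rose and 8.93% fell), with 20 at an unadjusted p under 0.05. In BKO 18 rose and 2 fell, where 10% of all genes rose and 8.93% fell. Erythroid markers, of which 5 of 5 rose in FF and 4 in BKO, summed to 449.7 to 547 FPKM against 120 to 188 fed in FF, and to 427 to 996 against 174 to 471 in BKO. White adipocyte markers summed to 39.9 to 56.0 in FF and 32.4 to 45.9 in BKO, and smooth muscle and fibroblast markers to 82.8 to 97.3 and 87.1 to 94.7, beside the fed ranges given above. The part of these markers in the result was not tested. Rpia was at 29.7, 19.9 and 33.8 FPKM in FF (1.23 ± 0.21) and 32.2, 29.5 and 36.5 in BKO cold-fasted libraries (1.12 ± 0.21). Pfkl was at 421, 399 and 463 and 447, 445 and 437 FPKM (0.87 and 0.87), and Hk2 at 184, 116 and 169.8 and 145, 132 and 116 FPKM. Hk2 passed in FF (0.99 ± 0.21, adjusted p = 0.00195) and not in BKO (0.49 ± 0.21, adjusted p = 0.11), and the difference between these responses, -0.50 ± 0.30, did not pass. The FF call for Hk2 ended with label set as a covariate (0.71, adjusted p = 0.0779). The genes that fell in BKO were Pfkfb2 (-0.43) and Pfkfb3 (-0.55); the first call ended without the third cold-fasted or the second fed library, the other on omission of any of 14 libraries. The FF cold-fasted libraries are all in the second label set and 2 of 3 FF fed ones in the first: with label set as a covariate 9 members were called (6.43% of all genes), and within the second set, against 1 fed library, 4 were (2.32%), namely Pfkl, Tpi1, Pgam1 and Pkm. The BKO comparison lies in the second set, so the covariate cannot move its differences. With it 19 members were called (18.7%). Omitting the second fed library of the genotype lowered the count to 12 in FF and to 14 in BKO.

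Setting cold-fasted against cold directly, as a mean over both genotypes, limma called 0 of the 34 members and 0.0157% of all genes, with 2 members at an unadjusted p under 0.05. The largest member difference was that of Slc2a5, -0.46 ± 0.20 (adjusted p = 0.542). At room temperature the same contrast of fasted against fed was -3.22 ± 0.21. For Slc2a4 the fasting difference was -1.37 ± 0.08 at room temperature and -0.07 ± 0.07 in the cold, for Pgd -1.88 ± 0.15 and -0.10 ± 0.14, and for Pfkl -1.69 ± 0.09 and -0.09 ± 0.09. Since the feeding state of the cold group is not stated, the cold-fasted against cold contrast compares those labels only.

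The difference between these fasting differences, cold minus room temperature, was tested in the same fit, a contrast added after the data had been seen. It was positive and called for 23 of the 34 members, where 17% of all genes were, and negative for 1, where 16.5% were. The members' median was 0.62, beside -0.01 over all genes. The room temperature term uses the fasted and fed libraries, and the cold term the cold-fasted and cold ones. All of them were in the comparisons above, so the value repeats none of those with new samples. All 8 tested genes of upper glycolysis and all 4 of the non-oxidative pentose phosphate branch were among the 23. Slc2a5 (2.76 ± 0.29, adjusted p = 2.81e-07), Pgd (1.78 ± 0.20, adjusted p = 1.03e-06) and Pfkl (1.60 ± 0.13, adjusted p = 9.75e-09) had the largest values, followed by Eno1 (1.33 ± 0.12) and Slc2a4 (1.29 ± 0.11, adjusted p = 1.81e-08). The negative one was Slc2a1 (-0.35 ± 0.12, adjusted p = 0.0243), a call that ended without the first FF fed, the first FF fasted or the first BKO fasted library, and whose value in BKO mice alone was 0.077. With label set as a covariate 19 members were called (24.7% of all genes), and the calls of Hk2 (0.39, adjusted p = 0.202), Gpi1 (0.27, adjusted p = 0.151), Rpia (0.53, adjusted p = 0.073), G6pdx (0.37, adjusted p = 0.078) and Slc2a1 (-0.37, adjusted p = 0.0518) ended, so neither the upper-glycolysis nor the non-oxidative set was then called in full. Neither set was called in full within a single genotype. Of these sets Hk1, Gpi1, Pfkp and Rpia were not called in BKO mice alone. In FF mice alone Hk2, Gpi1, Tpi1 and Rpia were not called. Quantile normalization ended the calls of Gpi1 and Aldoa in the upper-glycolysis set.

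**Figure D3:**
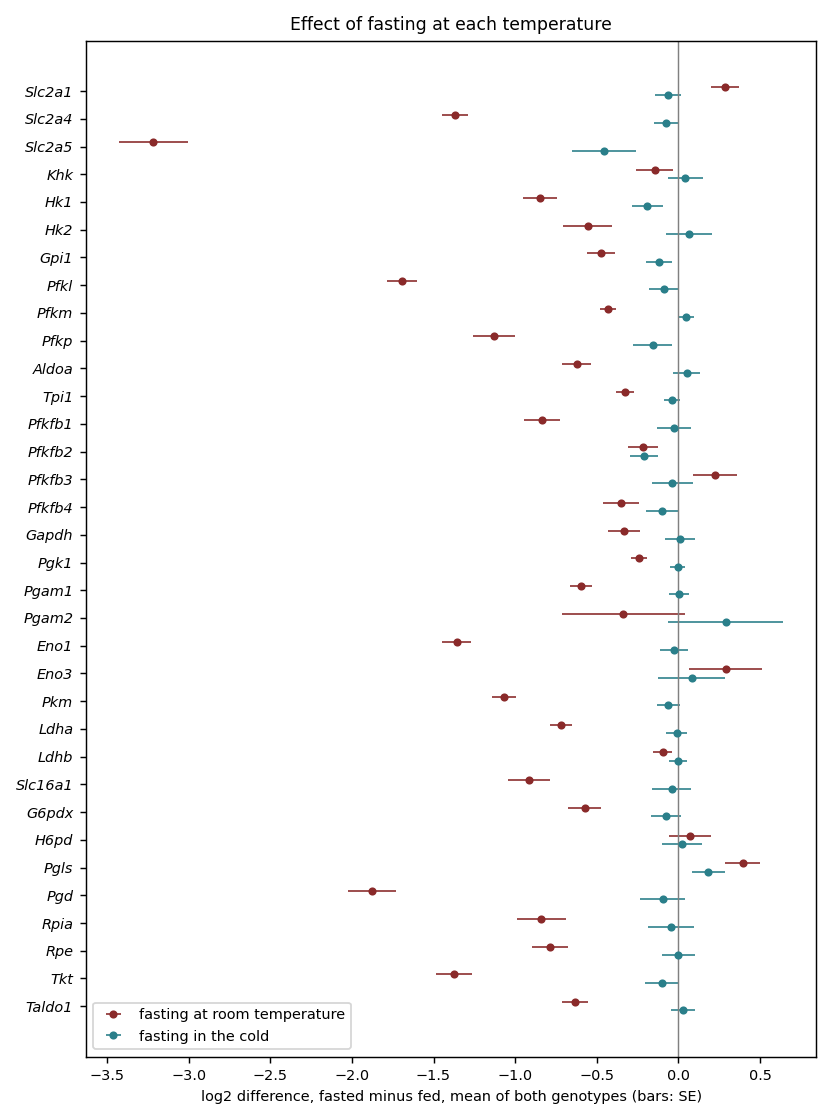
Fasting difference at room temperature (fasted minus fed) and in the cold (cold-fasted minus cold), with 1 row per gene. Both are drawn as separate coloured points on the same horizontal axis. Each is a mean over both genotypes in log2(FPKM + 1) with bars of 1 SE. Room temperature points spread far to the left, with Slc2a5 at -3.22, but points for the cold stay near 0, where Slc2a5 is lowest at -0.46.

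BKO and FF tissue differed in few of these genes when fed or cold. In fed mice limma called 0 of the 34 members and 0.22% of all genes, with 4 members at an unadjusted p under 0.05; without the third FF fed library 1 member was called. In cold mice 1 fell, where 0.378% of all genes fell, and in cold-fasted mice 1 fell, where 0.22% did. In both it was Pfkfb1 (chromosome X, 150588229 to 150643878, forward strand). Its libraries read 23.7, 24.5 and 17.1 FPKM in FF fed and 14.2, 11.9 and 15.4 in BKO fed, and 20.2, 12.8 and 15.5 in FF fasted and 5.64, 4.7 and 5.29 in BKO fasted. In the cold they read 25.5, 21.4, 20.1 and 19.8 in FF and 13.6, 15.2, 10.4 and 14.5 in BKO, and in cold-fasted mice 23.7, 20.8 and 22.7 and 12, 14 and 11.2. Each BKO library was below each FF library of the same state. The BKO mean was 63.7% of FF when fed, 32.2% fasted, 61.8% cold and 55.4% cold-fasted.

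The genotype difference of Pfkfb1 was -0.61 ± 0.16 fed (adjusted p = 0.187), -1.45 ± 0.16 fasted (adjusted p = 2.54e-06), -0.66 ± 0.13 cold (adjusted p = 0.0207) and -0.81 ± 0.16 cold-fasted (adjusted p = 0.0209). Averaged over the 4 states it was -0.88 ± 0.08 (adjusted p = 3.88e-08). The average and fasted calls held without any 1 library and with label set as a covariate (-1.39 fasted, adjusted p = 0.00212). The set effect in that fit comes only from FF fed and FF cold libraries, with 1 second-set library in each group. That effect is taken to be the same in the fasted state, so genotype and label set are still not separated there. The cold call ended without the first or the second FF or the first or the third BKO cold library (adjusted p up to 0.121), with the covariate (-0.62, adjusted p = 0.545) and within the second set (-0.89, adjusted p = 0.161). In cold-fasted mice both genotypes are in the second set, so the covariate cannot move the difference of -0.81. The call with it (adjusted p = 0.0289) therefore adds no support. The cold-fasted call ended without any FF cold-fasted library or the first or the third BKO one (adjusted p up to 0.137). The fasting difference of Pfkfb1 in BKO minus that in FF was -0.84 ± 0.22 and did not pass (adjusted p = 0.0777).

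In fasted mice 5 members were lower in BKO and 3 higher, where 4.15% of all genes fell and 4.53% rose. Besides Pfkfb1 the lower ones were Slc2a4 (-0.70 ± 0.11), Hk2 (-0.75 ± 0.21, adjusted p = 0.0277), Slc2a1 (-0.54 ± 0.12, adjusted p = 0.00678) and Gpi1 (-0.48 ± 0.12, adjusted p = 0.0151), whose BKO means were 61.6%, 58.3%, 60.8% and 71.2% of FF. Hk2 was at 93.1, 59 and 74.9 FPKM in FF and 38.7, 41.9 and 51.6 in BKO, and Slc2a1 at 4.89, 3.21 and 4.01 and 2.9, 2.23 and 2.24. For Hk2 the groups did not overlap, and for Slc2a1 the lowest FF library, 3.21, was above the highest BKO one, 2.9. The higher ones were Slc16a1 (0.73 ± 0.18, adjusted p = 0.0148), Pfkfb3 (0.62 ± 0.19, adjusted p = 0.0408) and Pgam1 (0.35 ± 0.10, adjusted p = 0.0222). All 3 FF fasted libraries are in the first label set and all 3 BKO ones in the second. The covariate fit therefore rests on a set effect taken from FF fed and FF cold libraries alone. With label set as a covariate 3 calls held, Slc2a4 (-0.88, adjusted p = 0.0043), Pfkfb1 and Hk2 (-1.18, adjusted p = 0.0432), where 1.13% of all genes were called, and the other 5 ended at differences of -0.58 for Slc2a1, -0.64 for Gpi1, 0.60 for Pfkfb3, 0.30 for Pgam1 and 0.62 for Slc16a1.

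Single libraries also decided several of these fasted genotype calls. Those of Slc2a1, Slc2a4 and Pfkfb1 held without any 1 library. Hk2 ended without the first or the third FF fasted or the first or the second BKO fasted library (adjusted p up to 0.124). Gpi1 ended without the first or the third FF or the second or the third BKO library (up to 0.0854), and so did Slc16a1 (up to 0.112). Pfkfb3 ended without the second or the third of either genotype (up to 0.195), and Pgam1 without the third of either (up to 0.16) or with its near-identical copies summed (adjusted p = 0.122). The count over the list was 5 without the first FF fasted library, 3 without the third, 5 without the second BKO fasted library and 4 without the third.

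Averaged over the 4 states, 3 members were lower in BKO, where 1.71% of all genes were: Pfkfb1, Slc2a4 (-0.21 ± 0.05, adjusted p = 0.0376) and Ldhb (-0.18 ± 0.04, adjusted p = 0.0169). The Slc2a4 average takes in the fasted difference of -0.70, where genotype and label set cannot be told apart. In the fed and in the cold state the Slc2a4 values given earlier overlapped between genotypes. Ldhb was at 407, 429 and 433 FPKM in FF fed and 377, 347 and 398 in BKO fed libraries, and at 526, 556, 507 and 534 and 453, 486, 442 and 483 in the cold. Fed and cold FF libraries were each above the BKO ones of the same state, while fasted and cold-fasted values overlapped. The covariate ended the Slc2a4 and Ldhb averages, with differences of -0.32 and -0.19 (adjusted p = 0.162 and 0.477), leaving 1 call, where 0.464% of all genes were called. The Slc2a4 average also ended without the low-value filter and on omission of any of 14 libraries (adjusted p up to 0.0707). Without the second FF fasted library 5 members passed.

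Whether the response to a condition differed by genotype was tested for each condition against fed. For fasting, 1 member passed, Slc2a4 (-0.77 ± 0.16, adjusted p = 0.0242), with the larger fall in BKO, where 0.417% of all genes were more negative in BKO. The call held with label set as a covariate (-0.83, adjusted p = 0.016), where the set effect of FF fed and FF cold libraries is assumed for fasted ones. It ended without the first or the second FF fed, the third BKO fed, the third FF fasted or the second BKO fasted library (adjusted p up to 0.0819). The count was 2 without the third FF fed library and 5 without the second FF fasted library. For cold, limma called 0 members and 0.00787% of all genes, with 1 member at an unadjusted p under 0.05; for cold with fasting it called 0 and 0.00787%, with 0 members at that unadjusted level.

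The makeup of the phosphofructokinase and lactate dehydrogenase families stood apart in the fasted libraries of both genotypes. Pfkl made up 72.7% ± 0.555 of summed phosphofructokinase FPKM in fed FF (mean ± SD) and 73.9% ± 0.552 in fed BKO libraries, and 59.6% ± 6.04 and 59.3% ± 1.16 in fasted ones. The share of Pfkm went from 11.8% ± 2.76 to 23.6% ± 3.87 in FF and from 11.3% ± 1.14 to 21.2% ± 1.21 in BKO. In the cold the Pfkm share was 5.76% ± 0.484 in FF and 5.29% ± 0.489 in BKO. Ldha made up 73.5% ± 1.33 of lactate dehydrogenase FPKM in fed FF and 63.8% ± 1.56 in fasted FF libraries, and 75.3% ± 1.05 and 67% ± 1.9 in BKO. Hk2 was the main hexokinase in every group, at 89.5% ± 2.35 in fed and 94.5% ± 1.4 in fasted FF libraries, and at 91.4% ± 1.16 and 90.4% ± 1.49 in BKO. Pfkfb1 made up 2.05% ± 0.8 of summed Pfkfb FPKM in fasted BKO libraries, 7.21% ± 1.69 in fed BKO libraries and 8.57% ± 1.55 in fasted FF libraries. These shares are descriptions of the FPKM values, with no test.

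**Figure D4:**
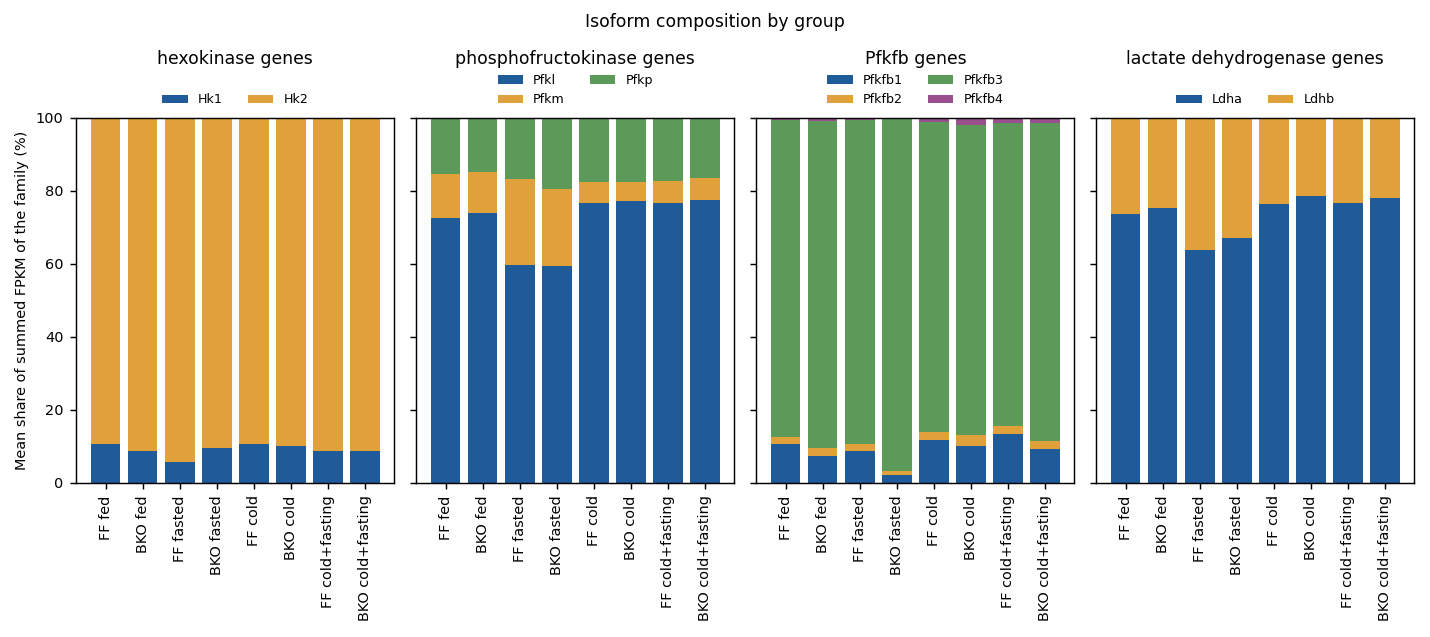
Stacked bars of the mean share (%) of each gene in the summed FPKM of its family, by group, for hexokinase, phosphofructokinase, Pfkfb and lactate dehydrogenase genes. The Pfkm and Ldhb bands are widest in the fasted groups, and the Pfkfb1 band is narrowest in fasted BKO mice, at 2.05%.

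Other genes of carbohydrate metabolism were taken from lists, and up to 4 called genes with the smallest adjusted p are named per list and comparison. Over all tested genes 18.1% rose and 19.4% fell in fasted FF, 12.9% and 14.6% in fasted BKO, 13.3% and 10.3% in FF cold, and 9.72% and 6.51% in BKO cold. Of 17 glycogen genes, 12 fell and 2 rose in fasted FF and 10 fell and 1 rose in fasted BKO mice, while 7 rose and 1 fell in FF cold and 4 rose and 1 fell in BKO cold. Ppp1r3b, a subunit that directs a phosphatase to glycogen, fell by fasting (-2.23 ± 0.32 in FF and -2.68 ± 0.32 in BKO), as did the liver-type glycogen phosphorylase Pygl (-1.19 ± 0.15 and -1.82 ± 0.15). The brain-type phosphorylase Pygb was higher in fasted BKO than in fasted FF mice (1.01 ± 0.12, adjusted p = 1.52e-05) and Pygl lower (-0.85 ± 0.15, adjusted p = 0.000959); here too genotype and label set cannot be told apart. The glycogen synthase Gys2 rose in the cold (0.94 in FF and 1.12 in BKO).

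For pyruvate entry into mitochondria and the NADH shuttles, 6 of 8 tested genes fell in fasted FF and 4 of 8 in fasted BKO mice, with 0 that rose (all genes, 19.4% and 14.6% fell), and 3 of 7 rose in FF cold and 4 of 7 in BKO cold, with 0 that fell (all genes, 13.3% and 9.72% rose). The glycerol phosphate dehydrogenase Gpd1 fell by fasting (-1.24 ± 0.15 and -1.39 ± 0.15), and Got1, the cytosolic aspartate aminotransferase, rose in the cold (1.73 ± 0.16 and 1.80 ± 0.16). The pyruvate carrier subunit Mpc2 fell by fasting (-0.51 and -0.40) and rose in the cold (0.59 and 0.65). Among 8 tested genes for other sources of NADPH, 2 rose and 2 fell in fasted FF, 1 rose and 3 fell in fasted BKO, and 1 rose in BKO cold. Malic enzyme, Me1, fell most (-2.15 ± 0.32 and -2.22 ± 0.32). Aldh1l1, a folate enzyme that makes NADPH, rose by fasting in FF (1.61 ± 0.17) and BKO (0.51 ± 0.17), a difference in response of -1.10 ± 0.24 (adjusted p = 0.0355), and was lower in BKO on average (-0.88 ± 0.08, adjusted p = 1.49e-07). The fasted FF and fasted BKO libraries lie in different label sets, and both Aldh1l1 comparisons of genotype take them in.

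Of 6 tested gluconeogenesis genes, 2 rose and 3 fell in fasted FF and 2 rose and 2 fell in fasted BKO mice, where 18.1% and 19.4% of all genes, then 12.9% and 14.6%, rose and fell. The phosphoenolpyruvate carboxykinases Pck2 (2.19 ± 0.18 and 1.77 ± 0.18) and Pck1 (0.79 and 0.74) rose, and the glucose 6-phosphate carrier Slc37a4 fell (-0.75 and -0.76). Pck2 was lower in fasted BKO than in fasted FF mice (-0.75 ± 0.18, adjusted p = 0.0114), where genotype and label set cannot be told apart. In the cold 1 rose and 2 fell in FF and 2 rose and 1 fell in BKO, with the fructose bisphosphatase Fbp2 up in both (1.61 ± 0.14 and 1.54 ± 0.14). Of 10 regulators of carbohydrate and hypoxia responses, 3 rose and 3 fell by fasting in each genotype, and 4 rose and 2 fell in FF cold and 5 rose and 0 fell in BKO cold. Mlxipl, the carbohydrate response factor ChREBP, fell by fasting (-1.29 ± 0.12 and -1.21 ± 0.12). The prolyl hydroxylase genes Egln1 (1.09 ± 0.08 and 1.15 ± 0.08) and Egln3 (1.92 ± 0.23 and 1.85 ± 0.23), which act on hypoxia-inducible factor, rose in the cold.

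Of 13 genes of GLUT4 traffic, 2 rose and 2 fell in fasted FF, 1 rose and 1 fell in fasted BKO, and 0 rose and 1 fell in the cold in each genotype. Over all genes 18.1% rose and 19.4% fell in fasted FF and 12.9% and 14.6% in fasted BKO mice, so 2 of 13 each way in FF is near or below that background. Vamp2, with the smallest adjusted p of this list in both fasted comparisons, rose by fasting (0.48 ± 0.09 in FF and 0.54 ± 0.09 in BKO). It was also the gene that fell in the cold (-0.23 in FF and -0.34 in BKO). Tbc1d4, a Rab GTPase-activating protein that holds GLUT4 inside the cell, fell by fasting (-0.90 ± 0.18 and -0.74 ± 0.18). Of 27 listed other isoforms and transporters 13 were tested; 1 rose and 4 fell by fasting in each genotype, and 3 rose and 2 fell in FF cold and 4 rose and 3 fell in BKO cold, where 13.3% and 10.3% of all genes, then 9.72% and 6.51%, rose and fell. Bsg, the basigin that carries monocarboxylate transporters to the membrane, rose in the cold (1.90 ± 0.09 and 1.71 ± 0.09), while Slc16a7, the transporter MCT2, fell (-1.50 ± 0.16 and -1.53 ± 0.16). Of 3 polyol and fructose genes, 1 rose and 0 fell in each of the fasted and cold comparisons.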

How the data were processed

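RNA-seq of brown adipose tissue was measured in 26 libraries of 8 groups. The authors deposited 1 table of FPKM values; per the submitters' processing notes, STAR, Cufflinks and Cuffdiff were used with mm10, and versions, strand setting and treatment of reads that map to several places are not given in the sources used here. Whole counts are not used here, so depth is known only as a relative estimate from low values and no interval was computed from counts. FPKM divides by length and library size, so a few abundant genes can shift the rest. Groups were taken from the labels. Genes at 1 FPKM in at least 3 libraries were kept, and values entered limma 3.58.1 (R 4.3.3) as log2(FPKM + 1), with 8 group means, variance trend and Benjamini-Hochberg adjustment per comparison over all genes, called at 0.05. Zeros in 33 genes with no other value below 100 FPKM were treated as missing; no member was affected. The test was checked on values drawn with known changes. Near-identical transcripts were searched with BLAST 2.17.0 (95% identity over 300 bases), gene positions came from GENCODE M21 on GRCm38, where all 36 genes matched, and overlapping genes were found for 8 on the same strand and 14 on the opposite strand. The members, gene lists, tests and named-gene rule (every member; up to 4 called genes of smallest adjusted p per list and comparison) were chosen with earlier results of these data known. Alternatives were quantile normalization, the whole table without the low-value filter, 0.1 as pseudocount, label set as a covariate or 1 set alone, array weights, summed copies, each genotype alone and each library left out.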

Additional observations from a re-analysis of the deposited data

Results flagged for a closer look

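For 24 members the fasting difference in the cold differed from that at room temperature by a test of the difference itself, as a mean over both genotypes (limma, 3 or 4 libraries a group). The values, cold minus room temperature in log2(FPKM + 1), were 2.76 for Slc2a5, 1.78 for Pgd, 1.60 for Pfkl, 1.33 for Eno1, 1.29 for Slc2a4, 1.27 for Tkt and 1.01 for Pkm. They were 0.97 for Pfkp, 0.87 for Slc16a1, 0.81 for Pfkfb1, 0.79 for Rpia, 0.79 for Rpe, 0.71 for Ldha, 0.67 for Aldoa, 0.66 for Taldo1, 0.66 for Hk1, 0.62 for Hk2 and 0.60 for Pgam1. The smaller ones were 0.50 for G6pdx, 0.48 for Pfkm, 0.36 for Gpi1, 0.29 for Tpi1 and 0.23 for Pgk1, and the value for Slc2a1 was -0.35. The response of Slc2a4 to fasting differed between genotypes by -0.77 (BKO minus FF). In the 2 groups of 4 libraries, 0 of 68 gene and group pairs had a library far from the other 3 by Dixon's 95% criterion, which chance alone passes in about 1 group in 20.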

How the results depend on the processing

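Of 164 calls on members, each named gene in each comparison, a pseudocount of 0.1 ended 0, no filter 18, quantile normalization 12, label set as a covariate 25, array weights 3 and summed copies 1. The covariate cannot move differences between groups that lie wholly in the second set, which are among these calls. Summing copies changes the values only of members with listed copies. The first label set alone ended 8 of 40 and the second alone 34 of 105. Leaving out single libraries ended 173 calls and kept 4091, over all repeats. Many of these repeats omit a library outside the comparison, which leaves the difference itself unchanged. None of these settings turned a call's direction. Within one genotype, 6 of 24 differences between fasting in the cold and at room temperature were no longer called in BKO and 7 in FF, and that of Slc2a1 turned to 0.077 in BKO.

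Counts of called members moved by over 1.5 times in these cases. For BKO against FF they were 2 when fed with array weights (main 0) and 3 when fasted with the covariate (main 8). In the cold they were 0 with no filter, 2 with quantile normalization, 0 with the covariate and 0 in the second set (main 1), and in cold-fasted mice 0 with no filter (main 1). The average gave 1 with the covariate and 7 with array weights (main 3). FF cold gave 1 in the second set and 26 with array weights, 24 up and 2 down (main 17), and FF cold-fasted 9 with the covariate and 4 in the second set (main 17). The genotype difference in the fasting response gave 3 with array weights (main 1), and cold-fasted against cold 1 with array weights (main 0). The cause was not tested, except that the single sets hold fewer samples. With quantile normalization the share of higher among all genes called in fed BKO against FF went from 17.9% to 28.9%.

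With 1 library left out at a time, counts ran from 0 to 1 for BKO against FF fed (1 without the third FF fed library), 3 to 10 fasted (10 without the third BKO cold-fasted library), 0 to 1 cold, 0 to 1 cold-fasted and 2 to 5 on average. They ran from 19 to 23 for FF fasted, 13 to 20 for FF cold, 12 to 20 for FF cold-fasted, 23 to 28 for BKO fasted, 17 to 23 for BKO cold and 14 to 20 for BKO cold-fasted. The genotype difference in response ran from 0 to 5 for fasting and was 0 throughout for cold and for cold-fasted, as was cold-fasted against cold; the difference of fasting in the cold and at room temperature ran from 23 to 25. No paired analysis was possible because the labels give no replicate numbers shared between groups. Whole counts are not used here, so what depth limits cannot be stated beyond the low levels of some members. These are Gapdh, Pgam2, Pfkfb4 and Slc2a1, and Slc2a5 in the fasted libraries, where its percentages of the fed mean rest on very low values.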
